A study of Mus musculus with 4 samples.

Results

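The genes that build cholesterol and fatty acids were followed across 4 RNA-seq libraries made from epithelial cells of the tongue of C57BL/6 mice. The members are 37 genes of sterol synthesis, of its regulation and of fatty acid synthesis, elongation, desaturation and activation, chosen by symbol. All 37 were found, each once, among the 54446 mouse gene IDs of the deposited count table. The libraries labelled Otub2 knockout, numbered 3 and 4, come from mice that lack Otub2 systemically, per their genotype label; Otub2 encodes an OTU-family deubiquitinase. Controls 1 and 2 are wild type. Both groups were grown in RPMI medium with 10% serum, and TRIzol was used to extract the RNA. The labels give neither the deleted part of Otub2 nor the age or number of the animals, and separate animals or cultures are not stated for the libraries of a group. The p-values therefore measure the spread between these libraries, which may be technical.

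Cells make cholesterol from acetyl-CoA through mevalonate, squalene and lanosterol. SREBP transcription factors, released from the endoplasmic reticulum when sterol is scarce, switch on most of these genes, and Insig proteins hold them back when sterol is plentiful. SREBP-1 is best known for the fatty acid genes and SREBP-2 for the sterol genes. Fatty acid synthesis runs from citrate through acetyl-CoA and malonyl-CoA to palmitate, which elongases and desaturases then modify and acyl-CoA synthetases activate. In stratified epithelia these lipids feed membranes and the permeability barrier.

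Gene counts ranged from 18911259 to 22719550 in the knockout-labelled libraries and from 11548186 to 12185345 in the controls. Otub2 transcripts were present throughout, at 18.99 and 23.95 CPM (read counts scaled to library size with TMM, the trimmed mean of M-values) in the knockout-labelled libraries and 27.5 and 26.9 CPM in the controls. A gene-level count can hold reads from exons outside a deletion, so these values do not check the genotype. The count columns of libraries 3 and 4 are headed OE, a common abbreviation of overexpression, while their titles say KO; the titles were followed, and if OE were right the directions below would be those of added Otub2. Library 3 stood apart: 13 gland secretory markers held 30.1% of its gene counts, against 0.0033% in library 4 and 0.00135% and 0.00101% in the controls. Likewise 12 cardiac muscle markers held 1.44% of its counts, against 0.00382% in library 4 and 0.0071% and 0.0072% in the controls. Keratinocyte transcripts were abundant in every library. Krt14, a basal keratin, was at 11060 and 15970 CPM in libraries 3 and 4, against 25320 and 21570 CPM in the controls. As a group, 15 keratinocyte markers held 2.85% of gene counts in library 3 and 6.9% in library 4, against 9.51% and 9.06% in the controls. In library 3 that is less than the share of the gland markers. The summed level of these markers was 45260 and 63160 CPM in the knockout-labelled libraries and 81070 and 76630 CPM in the controls. Of the 15, 8 lay below both controls in both libraries, where 12% of genes with a mean of at least 5 CPM did. In such bulk samples fewer cells of a type and less RNA per cell cannot be told apart. Values without library 3, and some without library 4, are given beside the main results. Such a fit takes its spread from the controls alone, on the assumption that the lone library varies like them. Its p-values leave out the spread between libraries 3 and 4 and do not test the group difference again.

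Across the 37 members, sterol genes sat low and fatty acid genes sat high relative to each other in the knockout-labelled libraries. The median of 18 sterol members on the log2 CPM scale was 5.58 and 6.09 in libraries 3 and 4, against 5.93 and 6.06 in the controls. The median of 16 fatty acid members was 6.07 and 5.86 in libraries 3 and 4, against 5.33 and 5.53 in the controls. The difference of these medians, fatty acid minus sterol, was 0.48 and -0.23 in the knockout-labelled libraries and -0.59 and -0.52 in the controls. It does not depend on how libraries are scaled, because both medians come from the same library. With 2 libraries against 2 an exact two-sided permutation test cannot go below p = 0.333, so it is a description. The summed CPM of the sterol members divided by that of the fatty acid members was 0.518 and 0.898 in libraries 3 and 4, against 1.09 and 1.08 in the controls. Leaving out Acacb and Acsl1, a choice made after their values were seen, the ratio was 0.661 and 0.914 in libraries 3 and 4, against 1.12 and 1.12 in the controls.

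**Figure D1:**
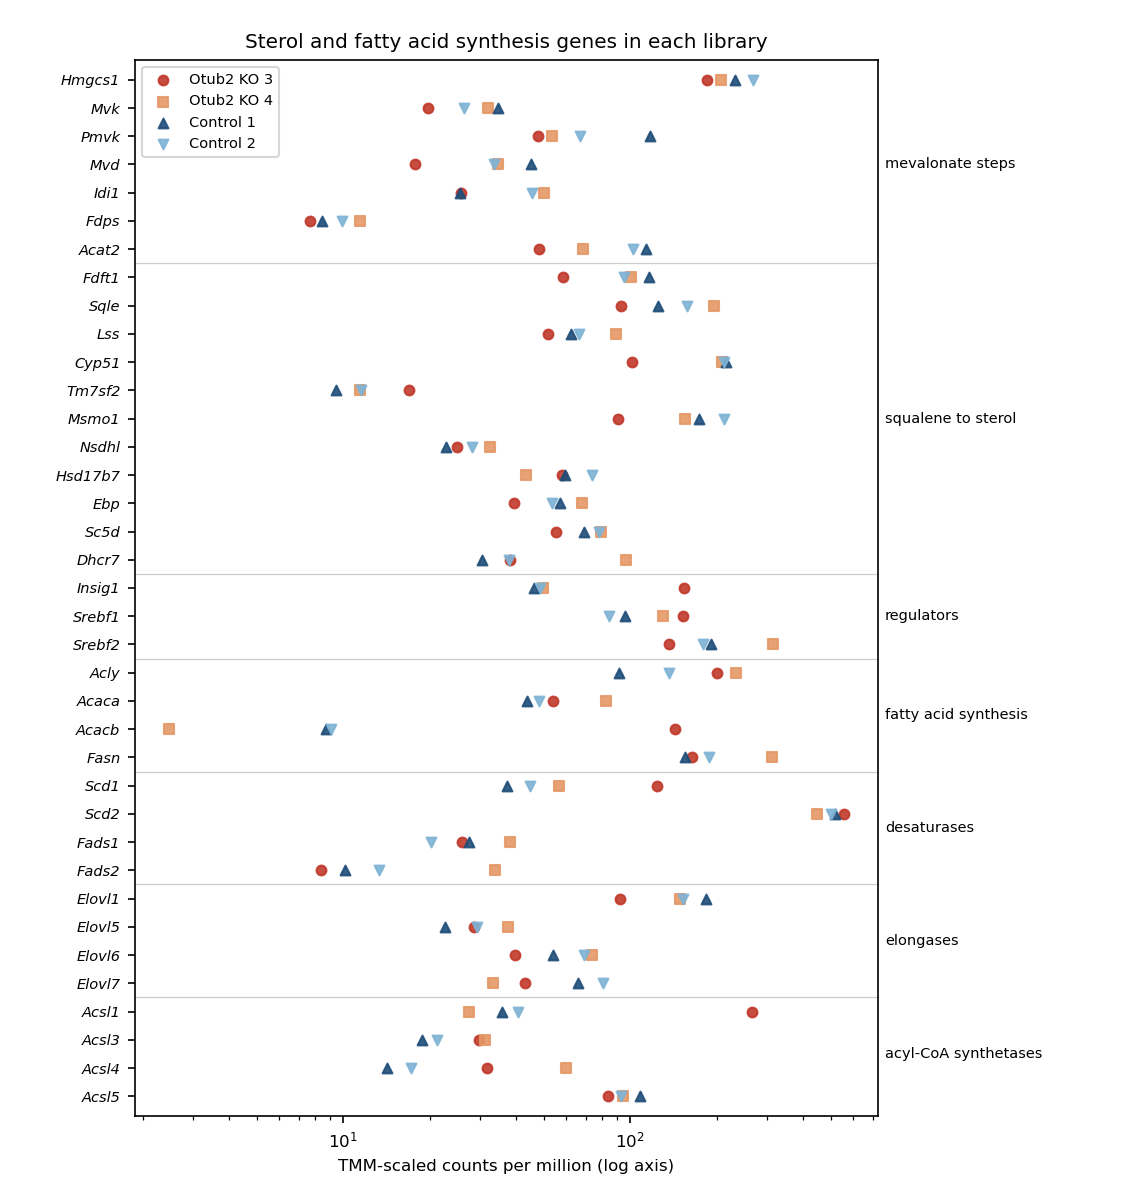
Level of each of the 37 genes in each library, in TMM-scaled CPM on a log axis, grouped by role; points are single libraries. Library 3 stands to the left of the others for most sterol genes and far to the right for Acacb, Acsl1 and Insig1, while Acsl4 lies higher in libraries 3 and 4 than in both controls.

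No member passed the edgeR quasi-likelihood test, which called 0 of 21916 genes higher and 0 lower (0% each) at an adjusted p of 0.05. At an unadjusted p under 0.05 there were 4 members higher (Srebf1, Acly, Scd1 and Acsl4) and 2 lower (Acat2 and Elovl7), where 9.42% and 15.2% of all genes tested reached that level. Adjusted p-values of the members ran from 0.166 to 0.963, and standard errors of the log2 fold changes had a median of 0.349. DESeq2 called 1 member, Acsl4, among 8% of genes called higher and 0.844% called lower. On the TMM scale both knockout-labelled libraries exceeded both controls for 8 members and fell short of both for 8, or 21.6% each way. Among 11788 genes with a mean of at least 5 CPM, the range that holds every member, 42.7% lay above and 12% below. For the sterol members alone the shares were 5.56% above and 33.3% below, and for the fatty acid members 31.2% and 12.5%.

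These directions are relative to a shift of the whole transcriptome that depends on the scaling. The median log2 fold change of genes with a mean of at least 5 CPM was 0.41 with TMM and -0.07 with upper-quartile size factors. The median of the sterol members was -0.18 with TMM and -0.65 with upper-quartile factors, which differs from the median of those genes by -0.59 and -0.58. With DESeq2 and all 4 libraries the median of the sterol members was 0.095, on the other side of zero, and its distance from those genes was -0.57. Without library 3 the median of the sterol members was 0.12, also above zero, and its distance from those genes was -0.27. Without library 4 the distance was -0.75. For the fatty acid members the median was 0.52 with TMM and 0.05 with upper-quartile factors, 0.11 and 0.12 above the same genes. Without library 3 that distance was 0.14, and without library 4 it was -0.15, so leaving out library 4 put the fatty acid members below those genes. None of these distances is matched for abundance. With TMM the median of all genes was 0.50 at 5 to 20 CPM, 0.35 at 50 to 100 CPM and -0.0016 at 200 CPM or more. Those ranges hold 3, 15 and 4 members. With upper-quartile factors 3 members lay above both controls and 17 below, where 15.8% and 31.3% of genes with a mean of at least 5 CPM did. Under all of 4 scalings (TMM, DESeq2 size factors, upper quartile, library size) only Acsl4 stayed above both controls in both libraries, and Acat2, Elovl7, Hmgcs1, Hsd17b7, Msmo1 and Pmvk stayed below.

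**Figure D2:**
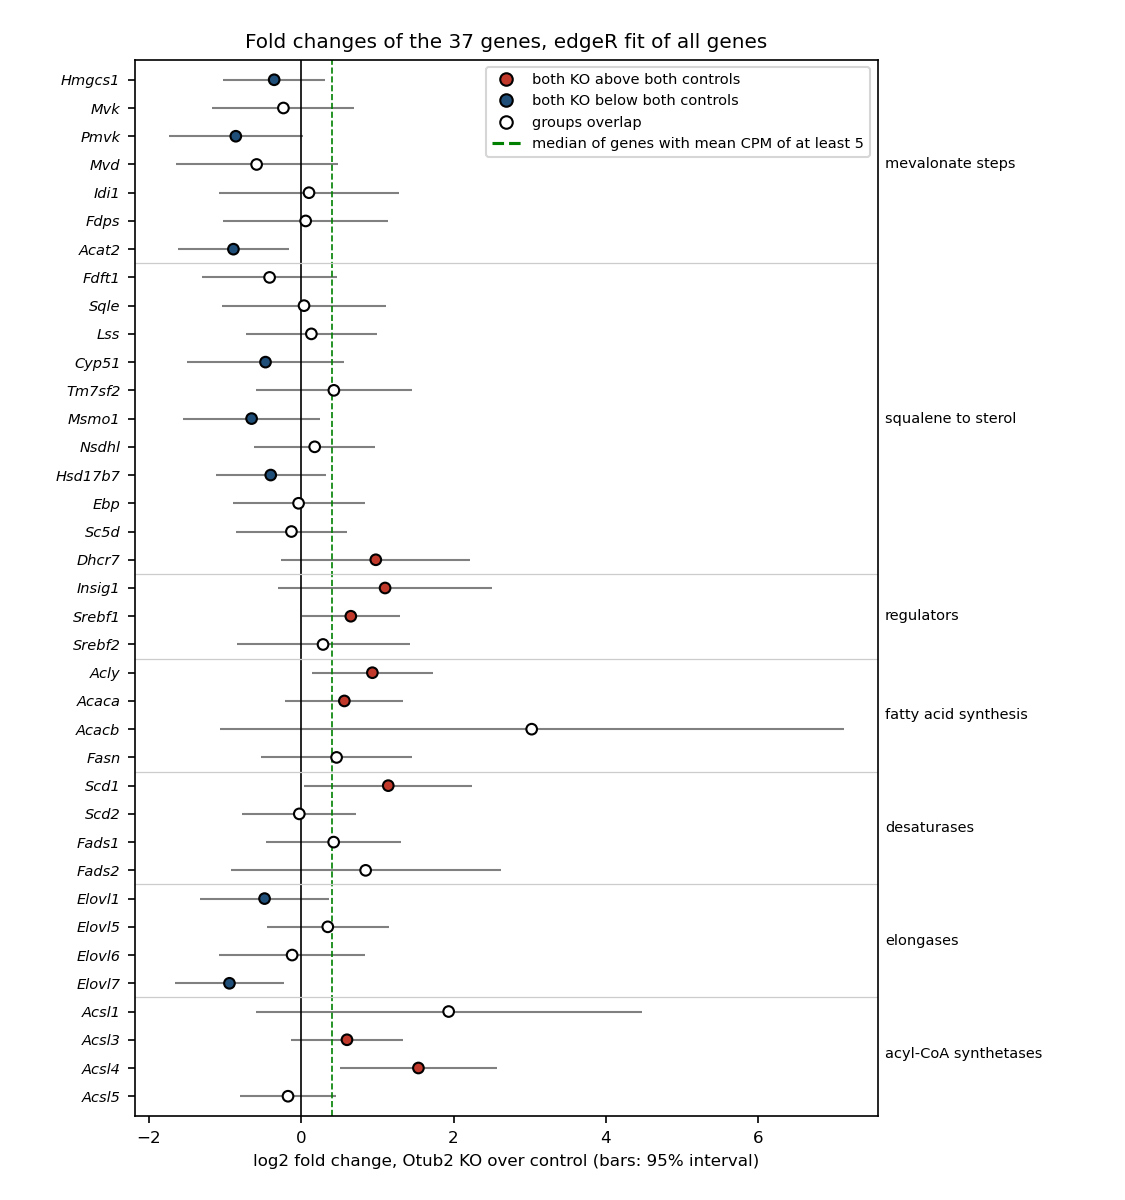
Log2 fold change of each gene, knockout-labelled over control, with its 95% interval from the edgeR fit; the dashed line is the median of genes with a mean of at least 5 CPM (0.41). Filled points mark genes whose libraries do not overlap between groups, 8 above and 8 below on the TMM scale, and the widest interval belongs to Acacb.

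The early enzymes of the mevalonate pathway lay below both controls in both knockout-labelled libraries for 3 of 7 members, and above for 0. Among genes with a mean of at least 5 CPM, 12% lay below and 42.7% above. Acat2, the cytosolic thiolase that condenses acetyl-CoA, was at 48.1 and 68.3 CPM in libraries 3 and 4, against 114 and 102 CPM in the controls. Both libraries lay clearly under both controls (log2 fold change -0.89, SE 0.287, edgeR adjusted p = 0.175). Without library 3 the change was -0.63 (edgeR adjusted p = 0.049), so library 4 alone also sat below the controls. Pmvk, phosphomevalonate kinase, was at 47.8 and 53.6 CPM in libraries 3 and 4 and at 117 and 66.9 CPM in the controls (-0.86, SE 0.346, adjusted p = 0.207). The controls themselves differed widely for this gene, and library 4 alone gave -0.75 (edgeR adjusted p = 0.0203).

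Hmgcs1, the cytosolic synthase that makes HMG-CoA, was at 185 and 207 CPM in the knockout-labelled libraries and 233 and 268 CPM in the controls. The groups did not overlap, but the gap was small (log2 fold change -0.36, SE 0.264, edgeR adjusted p = 0.411). Mvd, mevalonate diphosphate decarboxylase, was at 17.7 and 34.7 CPM in libraries 3 and 4, against 45.3 and 33.5 CPM in the controls. Only library 3 lay below both controls here. Log2 fold changes of the other 3 members were -0.23 for Mvk (mevalonate kinase), 0.10 for Idi1 (isopentenyl diphosphate isomerase) and 0.06 for Fdps (farnesyl diphosphate synthase), all with overlapping groups. Fdps had only 110 to 236 counts a library, and an annotated Fdps pseudogene had 0 to 5. How reads shared with such copies were counted is not given in the sources used here.

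Promoter letters are shown for a sterol gene that lay low under every scaling, because its window holds a classical SREBP element. The window spans 250 bases before to 50 after the annotated start, from RefSeq on GRCm38.p6, and lies at chr13:119690101-119690400 on the plus strand. Capitals mark the sterol regulatory element, searched as TCACNCCAC, and the CCAAT box of the SREBP partner NF-Y, searched as CCAAT, both on either strand. In Hmgcs1 these do not overlap, and the element begins 137 bases before the start.
Hmgcs1: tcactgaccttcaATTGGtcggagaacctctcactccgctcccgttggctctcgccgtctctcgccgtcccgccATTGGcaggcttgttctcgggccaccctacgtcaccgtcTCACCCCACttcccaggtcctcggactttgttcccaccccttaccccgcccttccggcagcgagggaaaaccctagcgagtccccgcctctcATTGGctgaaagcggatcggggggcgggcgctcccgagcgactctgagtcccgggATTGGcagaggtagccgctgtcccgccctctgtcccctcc

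A window was found for 31 of the 37 members. TCACNCCAC was present in 2 of the 31 members, Hmgcs1 and Acsl1, or 6.45%, against 1.44% of all 27025 genes with a window. CCAAT was present in 25 of 31 members (80.6%), against 41.1% of all genes. It was found in 14 of 15 sterol members and 8 of 13 fatty acid members. A match is a description of letters, and no match says only that these letters are not in the window.

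Between squalene and cholesterol, 3 of 11 members were low in both libraries, beyond both controls, and 1 was high. The shares were 12% low and 42.7% high among genes with a mean of at least 5 CPM. Msmo1, a methylsterol monooxygenase that acts after Cyp51 in the removal of methyl groups from the sterol ring, was at 90.4 and 155 CPM in libraries 3 and 4, against 173 and 212 CPM in the controls. Library 3 was the lower of the pair (log2 fold change -0.65, SE 0.354, edgeR adjusted p = 0.291), and library 4 alone gave -0.29 (edgeR adjusted p = 0.376). Hsd17b7, the sterol ketoreductase that acts beside it, was at 57.8 and 43.2 CPM in the knockout-labelled libraries and 59.5 and 73.8 CPM in the controls (-0.40, SE 0.285, adjusted p = 0.394), and library 4 alone gave -0.60 (edgeR adjusted p = 0.07). The order of libraries 3 and 4 was the reverse of that for Msmo1. Cyp51, lanosterol demethylase, was at 101 CPM in library 3 and 209 CPM in library 4, against 217 and 213 CPM in the controls. Nearly all of its fold change of -0.47 (log2, SE 0.406) came from library 3, since library 4 alone gave -0.01 (edgeR adjusted p = 0.974).

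The Msmo1 window, at chr8:64733529-64733828 on the minus strand, is printed as an example of a low sterol gene with 3 CCAAT boxes and no TCACNCCAC.
Msmo1: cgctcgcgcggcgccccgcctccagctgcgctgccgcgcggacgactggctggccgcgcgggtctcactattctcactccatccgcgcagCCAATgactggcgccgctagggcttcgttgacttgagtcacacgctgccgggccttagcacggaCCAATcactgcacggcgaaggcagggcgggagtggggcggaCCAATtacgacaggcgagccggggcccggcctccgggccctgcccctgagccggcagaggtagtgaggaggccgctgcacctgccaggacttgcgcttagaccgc

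Dhcr7, which carries out the last step to cholesterol by one route, lay on the high side. It was at 38.1 and 96.6 CPM in libraries 3 and 4 and at 30.5 and 37.9 CPM in the controls. Library 3 exceeded Control 2 by very little, whereas library 4 lay far above (log2 fold change 0.98, SE 0.488, edgeR adjusted p = 0.263). Library 4 alone gave 1.53 (edgeR adjusted p = 1.55e-07) and library 3 alone 0.15 (adjusted p = 0.695). Within each library the log2 ratio of Dhcr7 to Msmo1, which is free of scaling, was -1.25 and -0.68 in libraries 3 and 4, against -2.50 and -2.48 in the controls. This pair was chosen with its values known, one gene high and the other low, so the direction of the ratio is a description only.

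The remaining 7 sterol members overlapped between the groups, with log2 fold changes from -0.41 for Fdft1, squalene synthase, to 0.43 for Tm7sf2, a sterol reductase. Sqle, squalene epoxidase, was at 93.0 CPM in library 3 and 197 CPM in library 4, against 125 and 157 CPM in the controls, so that the controls lay between the knockout-labelled libraries. Lss (lanosterol synthase), Ebp (sterol isomerase) and Sc5d (sterol desaturase) had the same order, with library 3 lowest and library 4 highest. Nsdhl, a sterol dehydrogenase, was at 24.9 and 32.6 CPM in libraries 3 and 4 and 22.8 and 28.1 CPM in the controls. Exons of Fdft1 overlap those of Ctsb on the opposite strand, and those of Tm7sf2 overlap Vps51 on the same strand. Elsewhere among the members, Acsl1 overlaps Gm45244 and Hmgcs1 overlaps Gm48342 on the opposite strand. Fdps overlaps Gm43738 and Acsl3 overlaps Utp14b on the same strand. These are examples, and further members overlap other genes. Whether the counts used strand is not given in the sources used here, so reads in those stretches may belong to either gene.

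Taken one at a time, the knockout-labelled libraries differed from each other in the sterol genes. Library 3 was below both controls for 14 of 18 sterol members, where 28.4% of genes with a mean of at least 5 CPM were, and above both for 2, where 58.1% were. Library 4 was below both for 6 of 18 (23.4% of those genes) and above both for 8 (64.2%). Library 4 exceeded library 3 in 16 of 18 sterol members and in 28 of all 37, where 54.1% of genes with a mean of at least 5 CPM did. That share rose with abundance, from 44.8% at 5 to 20 CPM to 60.7% at 50 to 100 CPM and 68.3% at 200 CPM or more. The members were not matched for abundance. Tested alone against the controls, library 3 had 6 sterol members called lower and 0 higher at an adjusted p of 0.05, in a fit that called 22.4% of genes higher and 12.7% lower. Library 4 alone had 1 called higher (Dhcr7) and 2 lower (Acat2 and Pmvk), in a fit that called 18.8% higher and 22% lower. These fits share their controls; library 3 was not tested against library 4.

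**Figure D3:**
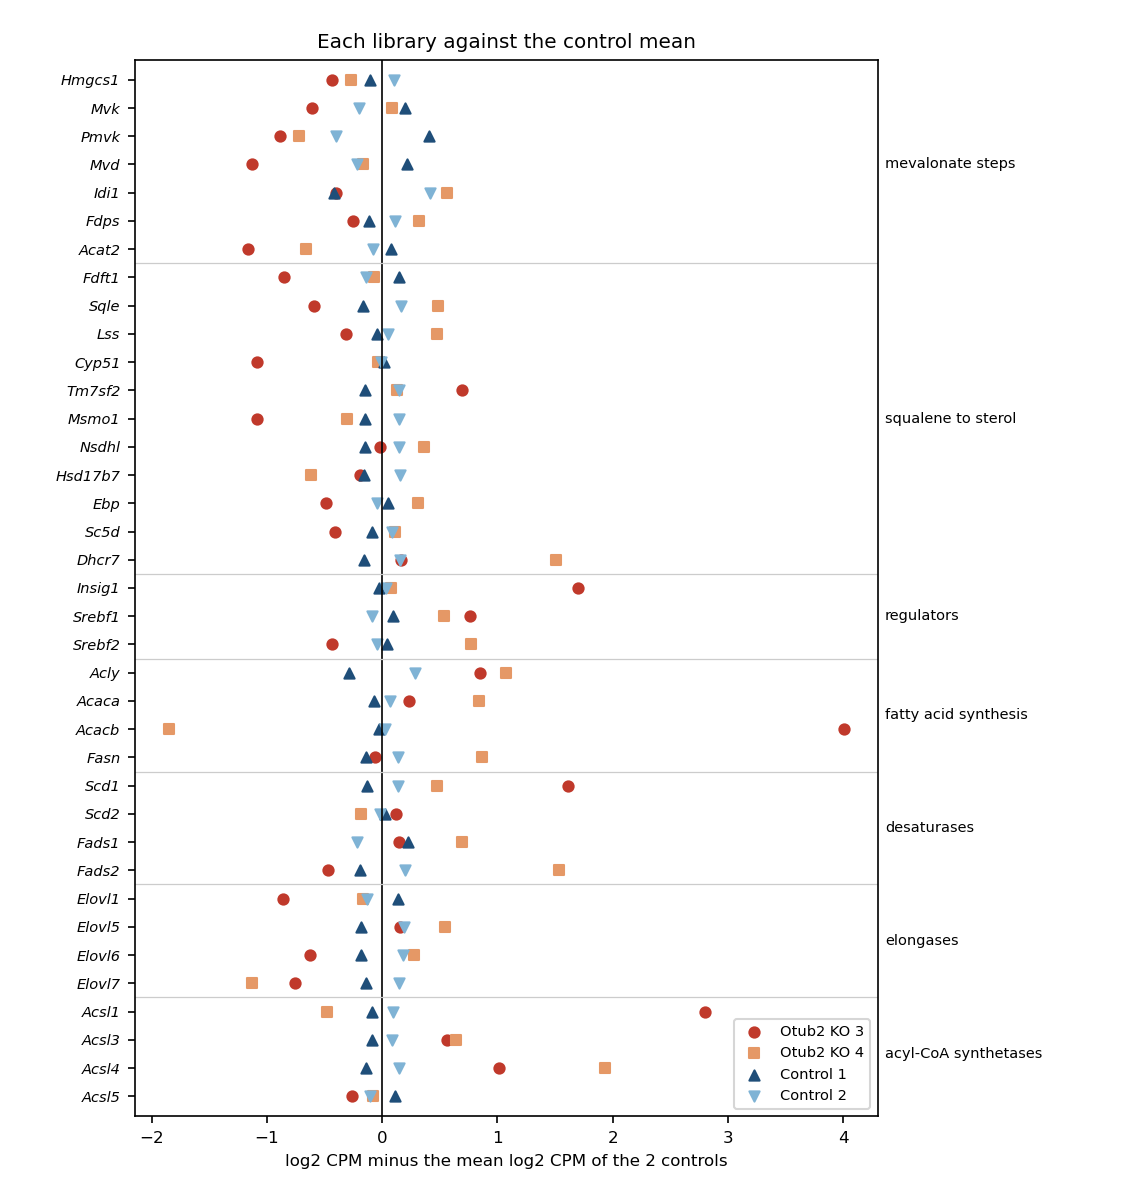
Log2 CPM of each gene in each library minus the mean log2 CPM of the 2 controls; points are single libraries, and the vertical line is the control mean. Library 3 lies left of the controls for 14 of 18 sterol genes, and libraries 3 and 4 lie on opposite sides of it for Acacb, Acsl1, Srebf2 and Fads2 among others.

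Among the regulators, both Srebf1 and Insig1 lay above both controls, and Srebf2 split. Srebf1, which encodes SREBP-1, was at 153 and 130 CPM in libraries 3 and 4, against 95.7 and 84.2 CPM in the controls. Both libraries exceeded both controls by similar amounts (log2 fold change 0.65, SE 0.255, edgeR adjusted p = 0.202), and the change was 0.56 without library 3 (edgeR adjusted p = 0.0692). With upper-quartile or library-size scaling the groups overlapped. Insig1, the sterol-sensing retention protein and itself an SREBP target, was at 154 CPM in library 3 and 49.8 CPM in library 4, against 46.3 and 48.3 CPM in the controls. Its fold change of 1.10 (log2, SE 0.552, edgeR adjusted p = 0.265) rested on library 3, and library 4 alone gave 0.10 (adjusted p = 0.781). Srebf2, which encodes SREBP-2, was at 137 CPM in library 3 and 316 CPM in library 4, with the controls between at 191 and 180 CPM (0.29, SE 0.447, adjusted p = 0.690), and its fold change was -0.17 with upper-quartile factors.

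The balance of the SREBP genes therefore differed between libraries 3 and 4. Srebf1 supplied 52.7% of the counts of both genes in library 3 (95% exact binomial interval 51.2 to 54.3%) and 29.2% in library 4 (28.2 to 30.1%). In the controls it supplied 33.4% (31.9 to 34.8%) and 31.9% (30.4 to 33.4%). These intervals cover counting error only. Library 3 stood apart from the other 3 libraries, and library 4 was close to the controls.

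In the core of fatty acid synthesis 2 of 4 members, Acly and Acaca, lay above both controls in both libraries, near the 42.7% of genes with a mean of at least 5 CPM. All 4 log2 fold changes were positive, but Acacb turned to -1.82 without library 3 and Fasn to -0.077 without library 4. Acly, ATP citrate lyase, which releases cytosolic acetyl-CoA from citrate, was at 201 and 235 CPM in libraries 3 and 4, against 91.5 and 136 CPM in the controls. Libraries 3 and 4 were close to each other and above both controls (log2 fold change 0.93, SE 0.312, edgeR adjusted p = 0.179). Without library 3 the change was 1.07, and without library 4 it was 0.81. Acly makes the cytosolic acetyl-CoA that Acat2 uses, and the log2 ratio of Acly to Acat2 within a library, a pair chosen with their values known, was 2.06 and 1.78 in libraries 3 and 4, against -0.31 and 0.42 in the controls.

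The window of Acly, at chr11:100527951-100528250 on the minus strand, holds 1 CCAAT box after the start and no TCACNCCAC, and is shown as that of a fatty acid gene high in both libraries.
Acly: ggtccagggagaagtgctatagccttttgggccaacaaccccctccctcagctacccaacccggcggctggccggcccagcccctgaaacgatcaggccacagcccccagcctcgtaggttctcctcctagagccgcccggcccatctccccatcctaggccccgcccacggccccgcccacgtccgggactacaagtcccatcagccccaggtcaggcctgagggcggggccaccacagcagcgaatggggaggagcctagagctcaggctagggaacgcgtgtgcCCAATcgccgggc

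Acaca, acetyl-CoA carboxylase 1, which makes malonyl-CoA for synthesis, was at 53.8 and 82.1 CPM in libraries 3 and 4 and 43.7 and 48.1 CPM in the controls (fitted log2 fold change 0.57, SE 0.305, edgeR adjusted p = 0.287). Fasn, the fatty acid synthase, was at 164 CPM in library 3 and 311 CPM in library 4, against 155 and 189 CPM in the controls. Only library 4 exceeded both controls (log2 fold change 0.88 for library 4 alone). Acacb, the mitochondrial carboxylase that restrains fatty acid oxidation and is abundant in heart and skeletal muscle, was at 143 CPM in library 3 and 2.47 CPM in library 4, against 8.75 and 9.08 CPM in the controls. Libraries 3 and 4 thus lay on opposite sides of the controls, and the fitted log2 fold change of 3.03 had an SE of 1.61. Library 4 alone gave -1.82 (edgeR adjusted p = 6.05e-06), which turns the direction. Acacb made up 72.7% of the counts of both carboxylases in library 3 and 2.92% in library 4, against 16.7% and 15.9% in the controls.

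Of the desaturases, Scd1 lay above both controls and Scd2, the most abundant member per length, overlapped between the groups. Scd1, which puts the first double bond into stearoyl-CoA, was at 124 and 56.5 CPM in libraries 3 and 4, against 37.1 and 44.7 CPM in the controls. Library 3 was highest by a wide margin (log2 fold change 1.14, SE 0.433, edgeR adjusted p = 0.197), and library 4 alone gave 0.49 (edgeR adjusted p = 0.126). Scd2, its paralog, was at 555 and 448 CPM in the knockout-labelled libraries and 518 and 502 CPM in the controls (-0.02, SE 0.295, with 95% limits of -0.77 and 0.72). The Scd1 share of the counts of both genes was 18.3% (17.5 to 19.1%) in library 3 and 11.2% (10.6 to 11.8%) in library 4, against 6.68% (6.14 to 7.25%) and 8.17% (7.56 to 8.82%) in the controls. This share does not depend on scaling and was higher in both knockout-labelled libraries. Reads that map to both paralogs could be split between them, and how they were counted is not given in the sources used here.

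The delta desaturases of polyunsaturated fatty acids differed mainly in library 4. Fads2, the delta-6 desaturase, was at 8.38 CPM in library 3 and 33.8 CPM in library 4, against 10.2 and 13.3 CPM in the controls. Library 4 alone gave a log2 fold change of 1.55, while library 3 alone gave -0.49. Fads1, the delta-5 desaturase, was at 25.98 and 38.0 CPM in libraries 3 and 4 and 27.4 and 20.2 CPM in the controls, with overlapping groups (0.43, SE 0.349, adjusted p = 0.451; -0.041 with upper-quartile factors).

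Of the 4 elongases, 2 lay below both controls in both libraries (Elovl7 and Elovl1) and 0 above, where 12% and 42.7% of genes with a mean of at least 5 CPM did. Relative to the control mean, the median elongase stood at -0.69 (log2) in library 3 and at 0.05 in library 4. Elovl7, an elongase of saturated very long chains, was at 43.0 and 33.2 CPM in libraries 3 and 4, against 65.8 and 80.4 CPM in the controls. Both knockout-labelled libraries lay well under both controls (log2 fold change -0.94, SE 0.279, edgeR adjusted p = 0.169). Without library 3 the change was -1.11, and without library 4 it was -0.77. Elovl1, which extends saturated and monounsaturated very long chains, was at 92.0 and 149 CPM in libraries 3 and 4 and 184 and 152 CPM in the controls (-0.48, SE 0.334, adjusted p = 0.384), with library 4 just under Control 2 and the groups overlapping under DESeq2 size factors. Elovl5, which acts on polyunsaturated chains, had a log2 fold change of 0.35 (SE 0.316), and of -0.11 with upper-quartile factors. Elovl6, which takes palmitate to stearate, had one of -0.12 (SE 0.379). Elovl5 took a larger share of the counts of the 4 elongases in the knockout-labelled libraries, 14.1% and 12.8%, than in the controls, 6.93% and 8.84%.

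Acyl-CoA synthetases, which activate free fatty acids, held the most separate member. Acsl4, which prefers arachidonate and other polyunsaturated acids and is known for its part in ferroptosis, was at 31.7 and 59.8 CPM in libraries 3 and 4, against 14.2 and 17.3 CPM in the controls. Every scaling left both libraries above both controls (log2 fold change 1.54, SE 0.406, interval of 95% from 0.51 to 2.57, edgeR adjusted p = 0.166). DESeq2 gave 1.82 (adjusted p = 0.0283). Without library 3 the change was 1.95 and without library 4 it was 1.005 (edgeR adjusted p = 7.08e-11 and 0.00174). The adjusted p lay between 7.08e-11 (without library 3) and 0.832 (without Control 1).

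The Acsl4 window, at chrX:142390486-142390785 on the minus strand, holds neither CCAAT, which most members with a window have, nor TCACNCCAC.
Acsl4: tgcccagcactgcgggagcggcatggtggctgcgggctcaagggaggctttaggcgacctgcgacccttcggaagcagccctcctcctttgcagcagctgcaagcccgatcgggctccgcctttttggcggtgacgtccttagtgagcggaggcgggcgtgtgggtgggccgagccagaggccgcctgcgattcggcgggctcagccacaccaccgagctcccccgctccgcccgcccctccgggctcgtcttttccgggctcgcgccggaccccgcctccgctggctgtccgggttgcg

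Acsl3, an endoplasmic reticulum and lipid droplet enzyme, was at 29.7 and 31.3 CPM in libraries 3 and 4 and 18.9 and 21.3 CPM in the controls (fitted log2 fold change 0.60, SE 0.287, edgeR adjusted p = 0.251). Acsl5, the most abundant of the 4 per length in the controls, had a log2 fold change of -0.17 (SE 0.249, with 95% limits of -0.81 and 0.46). Acsl1, the main synthetase of heart and adipose tissue, was at 265 CPM in library 3 and 27.3 CPM in library 4, against 35.8 and 40.6 CPM in the controls. As with Acacb, libraries 3 and 4 lay on opposite sides of the controls (1.94, SE 0.997), and library 4 alone gave -0.45 (edgeR adjusted p = 0.187). Acsl1 took 64.6% of the counts of the 4 synthetases in library 3 and 12.8% in library 4, against 20.2% and 23.6% in the controls. In library 4 Acsl4 took 28.1%, against 8.03% and 10.1% in the controls, but in library 3 it took 7.73%.

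Acsl1 has 2 windows in RefSeq, and the one at chr8:46490716-46491015 on the plus strand holds the other TCACNCCAC match, on the minus strand, with CCAAT boxes on both sides of it. The counts are per gene and do not tell which start was used.
Acsl1: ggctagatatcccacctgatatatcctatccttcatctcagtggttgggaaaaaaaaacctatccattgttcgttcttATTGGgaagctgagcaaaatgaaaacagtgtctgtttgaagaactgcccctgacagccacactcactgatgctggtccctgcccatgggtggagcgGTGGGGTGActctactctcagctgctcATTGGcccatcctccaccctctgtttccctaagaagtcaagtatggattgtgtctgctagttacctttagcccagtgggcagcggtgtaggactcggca

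**Figure D4:**
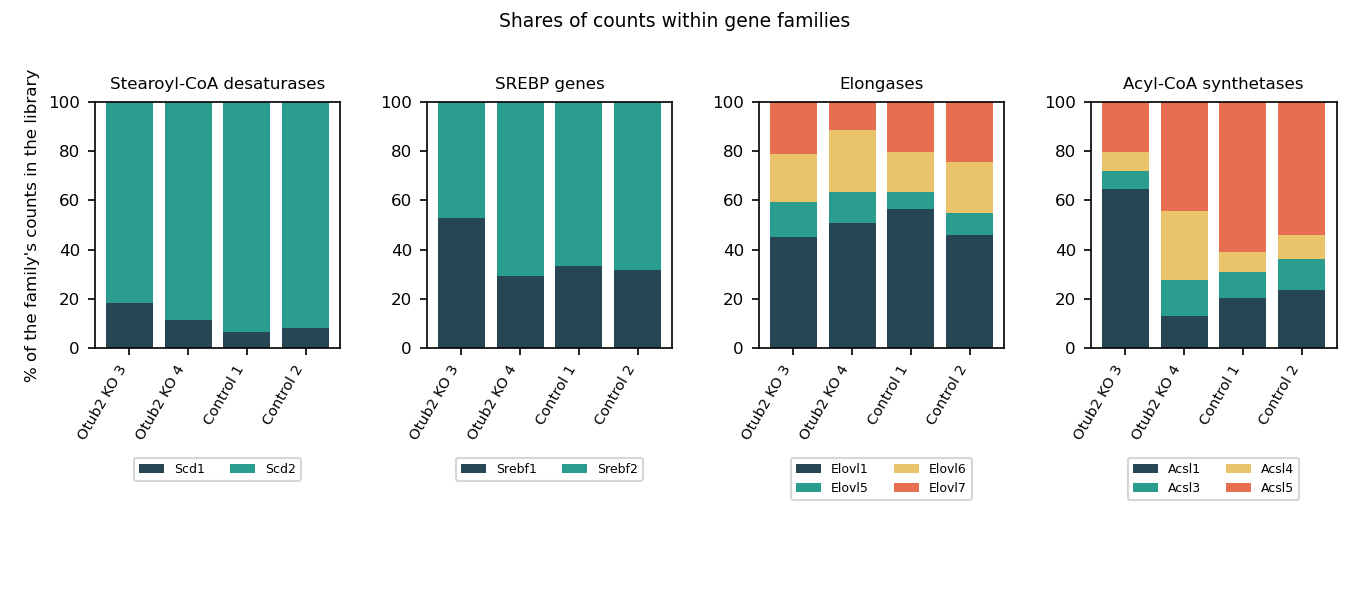
Share of counts within 4 gene families in each library, in percent of the family's summed counts; each bar is 1 library and adds to 100. The Scd1 share is larger in libraries 3 and 4 (18.3% and 11.2%) than in the controls (6.68% and 8.17%), and Acsl1 fills 64.6% of the synthetase counts in library 3.

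Acacb and Acsl1, the members with the highest fold changes, were high in library 3, which carries both gland secretory and cardiac muscle transcripts. Gland secretory markers held 30.1% of its gene counts and cardiac markers 1.44%, so their parts cannot be told apart here. Myh6, the cardiac alpha myosin heavy chain, was at 9390 CPM in library 3 and 0.436 CPM in library 4, against 3.71 and 4.39 CPM in the controls. The summed level of the 12 cardiac markers was 22780 CPM in library 3 and 34.99 CPM in library 4, against 60.5 and 60.9 CPM in the controls, and 10 of 11 tested had a positive fold change. Of the adipocyte markers, Adipoq, Plin1 and Cidec, the most specific to fat, were all under 1 CPM in libraries 3 and 4 and at 0.14 to 3.5 CPM in the controls. Fabp4, a fatty acid carrier of fat and endothelium, went the other way in library 3, at 190.6 CPM there and 36.5 CPM in library 4, against 88.5 and 47.3 CPM in the controls. Plin4, a lipid droplet protein of fat and muscle, was at 77.0 CPM in library 3 and 0.871 CPM in library 4, against 0.14 and 0.513 CPM in the controls. The summed level of 10 adipocyte markers was 1812 and 47.4 CPM in libraries 3 and 4 and 109 and 66.7 CPM in the controls, most of the library 3 sum coming from 1 gene not reported here, and 2 of 9 tested lay above both controls and 4 below. For 9 sebaceous and Meibomian gland markers the sums were 21.7 and 16.3 CPM in libraries 3 and 4, against 17.2 and 15.0 CPM in the controls, with Awat1 at 0 counts in library 3. Most of the library 3 and 4 sums was Cidea, at 14.0 and 10.6 CPM there against 5.32 and 3.37 CPM in the controls, and 4 of 7 tested lay below both controls (Mc5r, Elovl3, Far2 and Krt79) and 1 above. Fibroblast markers summed to 794 and 534 CPM in libraries 3 and 4 and 176 and 222 CPM in the controls, with 8 of 10 above both. Endothelial markers summed to 250 and 68.7 CPM in libraries 3 and 4, against 70.9 and 61.2 CPM in the controls, with 3 of 6 above both. Skeletal muscle markers summed to 434 and 88.4 CPM in libraries 3 and 4, against 33.9 and 29.1 CPM in the controls, with 1 of 10 above both and 2 below. The library 3 sum was mainly Ckm at 290.1 CPM and Acta1 at 129.5 CPM, and only these 2 of the 10 exceeded the control mean in that library. Leukocyte markers summed to 142 and 56.9 CPM in libraries 3 and 4, against 67.2 and 67.4 CPM in the controls, with 1 of 8 above both and 3 below. For comparison with these counts, 42.7% of genes with a mean of at least 5 CPM lay above both controls and 12% below. Several of the markers lie under that level. The part of these cell types in the lipid gene levels was not tested. When the gland and cardiac marker genes were left out before scaling, 0 of the 37 members changed direction. Members above both controls stayed at 8, and those below went from 8 to 6. Leaving out these genes changes the scaling but keeps every read of the members, so it cannot show the part of these cell types.

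**Figure D5:**
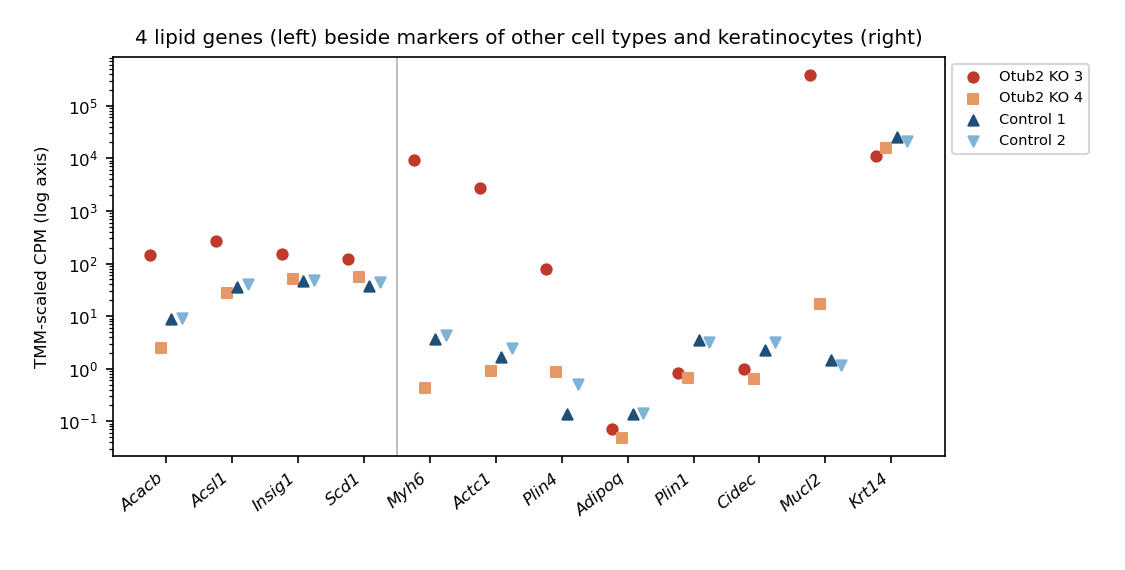
TMM-scaled CPM on a log axis of 4 lipid genes (left of the line) and of markers of cardiac muscle (Myh6, Actc1), fat (Plin4, Adipoq, Plin1, Cidec), gland (Mucl2) and basal keratinocytes (Krt14); points are single libraries. Library 3 is highest for Acacb, Acsl1, Insig1 and Scd1 and for Myh6, Actc1, Plin4 and Mucl2, while Adipoq stays under 0.15 CPM everywhere.

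Levels between genes were compared per length, as TMM-scaled CPM divided by the gene length in kilobases behind the deposited FPKM. Scd2 was the most abundant member in both groups, at 102 and 82.1 in libraries 3 and 4 and 95.1 and 92.0 in the controls. Elovl1 and Hmgcs1 followed in the knockout-labelled libraries at 44.2 and 42.6 (means of 2), and in the controls at 61.7 and 54.5. Their ranges overlapped in both groups, so their order is not settled by the spread. Acly stood at place 4 of 37 in the knockout-labelled libraries, at 41.3, and at place 12 in the controls, at 21.6 (means of 2). Elovl7 stood at place 27 in the knockout-labelled libraries and at place 15 in the controls. The lowest member in the controls was Acacb at 0.926, followed by Tm7sf2 at 1.88 and Fdps at 2.18.

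Genes of the same pathways outside the members were counted in a list of 24 on the sterol side and 28 on the fatty acid side, all of them tested. On the sterol side 8 were beyond both controls upward in both libraries and 4 downward; the median log2 fold change was 0.51, and 0 passed the edgeR test. The fatty acid side had 7 above and 7 below, a median of 0.37 and 0 past the test. Among genes with a mean of at least 5 CPM, 42.7% lay above and 12% below, and the median was 0.41. Some listed genes, such as Elovl2, lie under that level. The smallest p-values belonged to Oxsm, Elovl2, Osbp, Me1, Elovl4 and Gpam. Elovl4, which builds the ultra-long chains of barrier ceramides, was at 145 and 207 CPM in libraries 3 and 4, against 333 and 368 CPM in the controls (fitted log2 fold change -0.997, SE 0.308, edgeR adjusted p = 0.171). Me1, the cytosolic malic enzyme that supplies NADPH for lipid synthesis, was at 96.0 and 71.4 CPM in libraries 3 and 4 and 172 and 147 CPM in the controls (-0.93, SE 0.283, edgeR adjusted p = 0.170). Without library 3 these gave -0.74 and -1.13 (edgeR adjusted p = 0.0211 and 0.000362).

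Of the genes higher in both libraries, Oxsm, the condensing enzyme of mitochondrial fatty acid synthesis, was at 11.03 and 13.5 CPM in libraries 3 and 4, against 2.87 and 4.39 CPM in the controls. Osbp, an oxysterol-binding lipid carrier, was at 202 and 87.3 CPM in libraries 3 and 4 and 49.5 and 47.4 CPM in the controls. Gpam, which starts glycerolipid synthesis on mitochondria, was at 55.7 and 13.2 CPM in libraries 3 and 4 and 5.53 and 7.69 CPM in the controls. Their log2 fold changes were 1.75, 1.58 and 2.38 (SE 0.460, 0.450 and 0.744), with edgeR adjusted p-values of 0.166, 0.167 and 0.172. DESeq2 called all 3 (adjusted p = 0.0131, 0.0189 and 0.0103). In the whole list it called 3 of 24 genes higher on the sterol side and 3 of 28 on the fatty acid side, and 0 lower. Among all genes with a DESeq2 adjusted p, 8% were called higher. Elovl2, an elongase of polyunsaturated chains, was at 0.629 and 0.242 CPM in libraries 3 and 4, against 1.75 and 2.05 CPM in the controls (-2.16, SE 0.595).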

How the data were processed

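RNA-seq of 4 libraries was analysed from the deposited table. Raw read counts per gene were deposited by the authors as whole numbers, per the file headers. FPKM values were also deposited by the authors, per the file headers; gene lengths were taken from them, since each FPKM is the count divided by a length and by its column total (largest relative error 8.9e-15 among genes with over 200 counts). HISAT2, DESeq and the human build GRCh38 are named in the submitters' processing notes, although the IDs are mouse. Counting tool, strand setting and annotation release: not given in the sources used here. Columns headed OE were matched to titles by number; 0 columns of per-sample values were unused.

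The 14785 features without a gene ID took 1.29% and 0.914% of counts in libraries 3 and 4 and 2.84% and 2.82% in the controls, and were left out. Counts were tested with edgeR 4.0.16 (quasi-likelihood F-test, TMM, filterByExpr) in R 4.3.3, with Benjamini-Hochberg adjustment over 21916 genes. DESeq2 1.42.0, other size factors, other filters and leaving out each library were alternatives. DESeq2 gave an adjusted p for 14569 genes. Standard errors come from the F statistic. Both tools were tested on simulated data, where each recovered the size and direction of planted changes at low dispersion and missed part of them at higher dispersion; this does not say which tool's calls hold here. Exon overlaps use GENCODE M21 and promoter windows RefSeq, matched by symbol. Members and lists were chosen with earlier results of these data known. Per-library values were planned for up to 4 members per role by smallest p, and for up to 6 pathway genes, and any other member may be named. Between squalene and cholesterol this was not kept. Cyp51, Sqle and Nsdhl were given per-library values, and Fdft1, whose edgeR p was smaller than theirs, was not.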

Additional observations from a re-analysis of the deposited data

How the results depend on the processing

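No paired analysis was possible because the groups share no replicate number. Of the 37 members, 18 kept the sign of their log2 fold change under every alternative and 19 did not; where a sign turned, the cause was not tested. With upper-quartile size factors members above both controls numbered 3 and those below 17, the medians were -0.35 (all), -0.65 (sterol) and 0.054 (fatty acid), and the sign turned for Elovl5 (-0.11), Fads1 (-0.041), Fdps (-0.40), Idi1 (-0.35), Lss (-0.33), Nsdhl (-0.29), Sqle (-0.42), Srebf2 (-0.17) and Tm7sf2 (-0.040). With library size only, 1470 genes were called, 2 members lay above both controls, the fatty acid median was 0.15, and Elovl5 (-0.045), Fdps (-0.31), Idi1 (-0.23), Lss (-0.21), Nsdhl (-0.22), Sqle (-0.28), Srebf2 (-0.015) and Tm7sf2 (-0.084) turned. DESeq2 called 1288 genes and 1 member, put 2 members below both controls, and gave medians of 0.095 (sterol, above zero) and 0.80 (fatty acid). It turned Acsl5 (0.086), Ebp (0.25), Elovl6 (0.16), Mvk (0.047), Sc5d (0.14) and Scd2 (0.21). Its size factors in edgeR turned Ebp (0.028) and Scd2 (0.023). With no filter 9 genes were called, 3 members lay below both controls, and Ebp (0.11), Elovl6 (0.020), Sc5d (0.0076) and Scd2 (0.10) turned. When genes under a mean of 5 CPM were left out, 5 members lay above and 14 below, the fatty acid median was 0.18, and Fdps (-0.27), Idi1 (-0.23), Lss (-0.20), Nsdhl (-0.15), Sqle (-0.30) and Srebf2 (-0.049) turned. With unannotated features kept, 14 lay above and 3 below, and the medians were 0.080 (sterol, above zero) and 0.78 (fatty acid). In that fit Acsl5 (0.085), Ebp (0.23), Elovl6 (0.14), Mvk (0.029), Sc5d (0.13) and Scd2 (0.23) turned.

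Leaving out 1 library at a time, 0 to 9456 genes and 0 to 15 members were called, the most genes without library 3 and the most members without library 4. Members with all remaining knockout-labelled libraries above all remaining controls numbered 9 to 22, and those below 8 to 20. With 1 library left in a group this is an easier condition than in the main fit, so these counts are not comparable with it. The medians ran from -0.27 to 0.29 (all), from -0.48 to 0.12 (sterol, among these fits positive only without library 3) and from 0.13 to 0.66 (fatty acid). Log2 fold changes that turned in some of these fits ranged from -1.82 to 3.999 for Acacb, -0.45 to 2.79 for Acsl1, -0.49 to 1.55 for Fads2, -0.077 to 0.88 for Fasn, -0.45 to 0.79 for Srebf2, -0.61 to 0.50 for Sqle, -0.46 to 0.61 for Idi1, -0.64 to 0.29 for Elovl6, -0.63 to 0.098 for Mvk, -0.49 to 0.33 for Ebp, -0.41 to 0.13 for Sc5d, -0.16 to 0.12 for Scd2, -0.26 to 0.34 for Fdps, -0.32 to 0.50 for Lss and -0.034 to 0.38 for Nsdhl. Each member had 51 to 9255 counts a library. Standard errors of 0.249 to 1.61 on the log2 scale limit what 2 libraries a group can show.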
